A study of Mus musculus with 12 samples.

Results

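The cytokine signal suppressors are 10 genes grouped for products that limit signalling from cytokine receptors, though the product of Ptpn11 is also needed for RAS-ERK signalling. The 10 are the SOCS genes Socs1, Socs2, Socs3 and Cish, the phosphatase genes Ptpn2, Ptpn6 and Ptpn11, the PIAS gene Pias1, the adaptor gene Sh2b3 and the ubiquitin ligase gene Cbl. Their probe sets were found by gene symbol in the platform annotation, and the list names genes by function, though it was drawn up with earlier results of these data known. All 10 were found, each with 1 probe set, among 19494 named genes tested. The arrays came from irradiated wild-type mice (CD45.1) that had received bone marrow of CD45.2 donors and from which donor-derived cells were sorted 13 weeks later. The groups were hematopoietic stem cells (HSC) of Nfat5 fl/fl Vav-Cre donors (NFAT5-deficient HSC), HSC of Nfat5 +/+ Vav-Cre donors (wild-type HSC), multipotent progenitors (MPP) of Nfat5 fl/fl Vav-Cre donors (NFAT5-deficient MPP) and MPP of Nfat5 +/+ Vav-Cre donors (wild-type MPP), with 3 arrays in each of the 4 groups. HSC were CD48- CD150+ and MPP were CD48+ CD150-, both within the LSK compartment, which lacks lineage markers and bears Sca-1 and Kit. Donors of both genotypes carried Vav-Cre, a Cre transgene active throughout the blood system, so every group had Cre and every recipient had been irradiated, and NFAT5 was not removed in HSC alone. The age of the animals was not given in the labels. Arrays bear the numbers 64, 70 and 76 in NFAT5-deficient groups and 66, 67 and 75 in wild-type groups, and values by array are given below in that order. The labels do not say whether equal numbers in HSC and MPP are the same animal or whether cells were pooled, so p-values measure the spread between these samples, which may be technical.

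When a cytokine binds its receptor, Janus kinases (JAKs) phosphorylate the receptor and the STAT transcription factors, which then enter the nucleus. SOCS genes are among the targets of STATs, and their proteins bind the receptor or the kinase through an SH2 domain and recruit a ubiquitin ligase through a SOCS box, which closes a negative feedback loop. The phosphatases remove the phosphates, PIAS proteins act on STATs in the nucleus, the Sh2b3 protein (LNK) restrains the kinase JAK2 below cytokine receptors, and Cbl marks activated receptors such as Kit for degradation. In mice, loss of LNK is known for an expanded HSC pool, and loss of SOCS1 or SOCS3 for exaggerated interferon or interleukin-6 type responses.

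Of these genes, Cish, Socs3 and Socs1 are shown by sequence, because their starts hold letters that STAT or interferon regulatory factors (IRF) are known to bind and their transcripts are therefore commonly read as feedback from those factors. The sequences are RefSeq's, on GRCm38.p6, from windows that run from 250 bases before to 50 bases after the annotated start. Such windows were at hand for 8 of the 10 genes, and Socs2 and Ptpn2 are named only. Capitals mark TTCNNNGAA, the letters of a STAT site (GAS type), in Cish and Socs3, and GAAA, any 2 bases and GAAA again, those of an IRF site, in Socs1. Each stretch is written 5′ to 3′ on the gene's strand.
Cish, chr9:107296655-107296682, plus strand: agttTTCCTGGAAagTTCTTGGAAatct
Socs3, chr11:117969492-117969540, minus strand: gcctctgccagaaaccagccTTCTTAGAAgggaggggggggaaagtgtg
Socs1, chr16:10785584-10785639, minus strand: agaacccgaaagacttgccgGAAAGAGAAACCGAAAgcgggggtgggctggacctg

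Both strands of each 300-base window were searched. The GAS-type letters were present in 2 of the 8 windows, 2 times in Cish and 1 time in Socs3, and in 8.3% of all 32851 windows of the same length. At least 2 matches, as in Cish, were found in 0.457% of windows. The IRF-type letters were present in Socs1 alone among the 8, as 2 overlapping matches, and in 3.44% of all windows. TGGAAA, the core of the sites that NFAT proteins including NFAT5 bind, was present in Cish and Ptpn6 and in 21.4% of all windows. In Cish both copies of TGGAAA overlapped the GAS-type letters printed above. These matches are letters in a window and say nothing about binding in these cells.

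Nfat5, the deleted gene, read 8.76, 8.34 and 7.62 (log2 intensity) in NFAT5-deficient HSC, against 9.81, 9.38 and 9.27 in wild-type HSC, without overlap (exact two-sided permutation p = 0.1, and no smaller p is possible with 3 against 3). Among MPP it read 7.63, 7.73 and 8.40 in NFAT5-deficient cells, against 8.78, 8.85 and 8.12 in wild-type cells, with overlap (exact two-sided permutation p = 0.2). The place of its probe set relative to the deleted part is not given, so it does not measure how complete the deletion was. Slamf1, which encodes the sorting marker CD150, was high in HSC: it averaged 10.08 ± 0.74 in NFAT5-deficient HSC against 6.46 ± 0.42 in NFAT5-deficient MPP, and 9.84 ± 0.24 in wild-type HSC against 6.26 ± 0.14 in their MPP (SD, n = 3 each). Cd48 had the opposite order, with 6.50 ± 0.88 against 10.28 ± 0.15 in NFAT5-deficient and 6.48 ± 1.25 against 9.92 ± 0.67 in wild-type HSC and MPP. Y-linked genes, taken as a low level on these arrays, had group means between 3.65 and 5.07. By gene these were 4.90 to 5.07 for Eif2s3y, 3.83 to 4.12 for Kdm5d and 3.65 to 3.74 for Uty. The mean of 9 markers of mature neutrophils was 5.42 to 5.53 in NFAT5-deficient HSC, against 6.88, 7.38 and 5.52 in wild-type HSC, so that wild-type arrays 66 and 67 lay above the other HSC arrays and array 75 did not. It was 6.02 to 6.62 in NFAT5-deficient MPP, against 6.94, 7.02 and 5.96 in wild-type MPP. Between genotypes limma called 0 of the 9 in HSC (0% of all genes called) and 0 of the 9 in MPP (0.00513%). The part of these markers in the genotype values below was not tested. B cell markers (4 measured) averaged between 5.82 and 6.41 and erythroid markers (4 measured) between 7.01 and 7.49 on the 12 arrays. Monocyte and macrophage markers (5 measured) averaged 5.44 to 5.62 on HSC arrays and 5.87 to 6.82 on MPP arrays. T and NK cell markers (5 measured) averaged 6.22 to 6.72 on HSC arrays and 6.70 to 6.87 on MPP arrays. Over both genotypes 2 of the 5 read higher and 3 lower in HSC, with a median of -0.13, so the list did not move as a whole. Only 1 of them, Nkg7, was called (-1.73, limma adjusted p = 0.00356, with 0.61% of all genes called).

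None of the 10 suppressor genes passed the test in any comparison. limma called 0 of 10 for loss of NFAT5 in HSC, where it called 0% of all genes tested, and 0 of 10 in MPP, where it called 0.00513% (1 gene, Ms4a4c). Between the populations it called 0 of 10 in NFAT5-deficient cells (background 0.21%) and 0 of 10 in wild-type cells (0.164%), and it called 0 of 10 for the difference between the genotype effects (0%). It also called 0 of 10 when the genotype effects were averaged over HSC and MPP (background 0%) and when the population differences were averaged over the genotypes (0.61%). No alternative fit called any of the suppressor genes it tested. At an unadjusted p under 0.05, limma gave 1 of 10 between populations in NFAT5-deficient cells (background 7.9%), 0 of 10 in wild-type cells (8.9%) and 1 of 10 over both genotypes (12.2%). That 1 gene was Socs2 in both, and the shares lie near the background. For loss of NFAT5 the same threshold gave 0 of 10 in HSC (background 6.18%), 0 of 10 in MPP (5.35%), 0 of 10 over both populations (7.11%) and 0 of 10 for the interaction (4.19%). Nfat5 itself was not called in HSC (limma adjusted p = 0.772), so a missing call does not show that a gene kept its level.

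**Figure D1:**
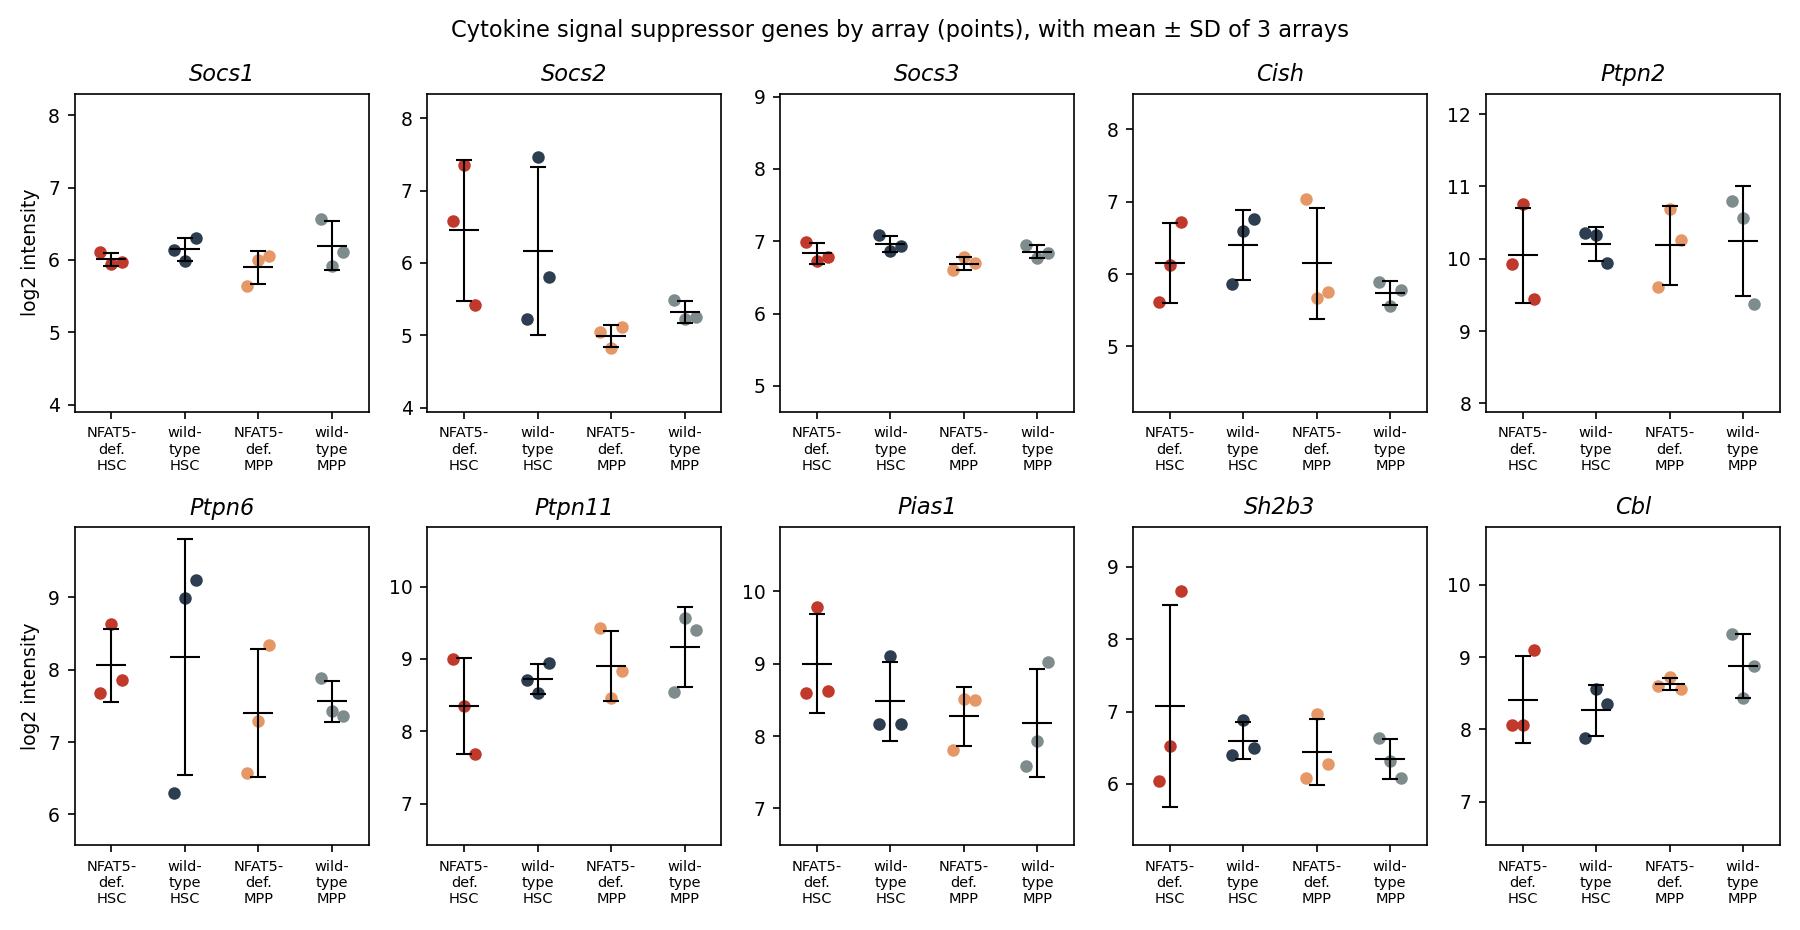
Log2 intensity (y axis, each panel spans the same number of log2 units) of the 10 suppressor genes on each of 12 arrays, by group (x axis); points are arrays, horizontal marks and bars are the mean ± SD of 3 arrays. Socs3 forms a tight row in all groups, Socs1 is tighter in HSC than in MPP, Socs2 is spread out in both HSC groups and low in both MPP groups, and single arrays stand apart for Sh2b3 (8.67 in NFAT5-deficient HSC), Ptpn6 (6.30 in wild-type HSC) and Cish (7.03 in NFAT5-deficient MPP).

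Among the SOCS genes, Socs3 was the steadiest. Its product binds the gp130 receptor of interleukin-6 and the granulocyte colony-stimulating factor receptor. Socs3 read 6.99, 6.72 and 6.79 in NFAT5-deficient HSC, against 7.08, 6.86 and 6.93 in wild-type HSC. It read 6.60, 6.78 and 6.70 in NFAT5-deficient MPP, against 6.95, 6.77 and 6.84 in wild-type MPP. All 12 arrays lay within 0.482 log2 units, and the groups overlapped in both populations. The genotype difference was -0.13 in HSC (95% interval -0.45 to 0.19) and -0.16 in MPP (-0.48 to 0.16). As a fold, the interval in HSC ran from 0.734 to 1.14. With single arrays left out, the HSC difference ran from -0.21 (NFAT5-deficient HSC array 64 omitted) to -0.07 (wild-type HSC array 66 omitted). The mean over both populations was -0.15 (-0.37 to 0.08, limma adjusted p = 0.731).

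Socs1, whose product blocks JAKs directly and is the main brake on interferon-gamma signalling, spanned 0.934 log2 units over the 12 arrays. It read 6.11, 5.94 and 5.98 in NFAT5-deficient HSC, against 6.14, 5.99 and 6.31 in wild-type HSC, and 5.63, 6.01 and 6.05 in NFAT5-deficient MPP, against 6.57, 5.92 and 6.11 in wild-type MPP. The genotypes overlapped in both populations. The difference was -0.14 in HSC (-0.53 to 0.26) and -0.30 in MPP (-0.70 to 0.09, limma adjusted p = 0.896). It became -0.06 in HSC without wild-type HSC array 75, and -0.12 in MPP without wild-type MPP array 66. Over both populations it was -0.22 (-0.50 to 0.06), the smallest unadjusted p among the 10 in that comparison (limma adjusted p = 0.722).

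Cish, the STAT5 target whose product dampens signalling of STAT5-activating cytokines, varied more. It read 5.62, 6.13 and 6.73 in NFAT5-deficient HSC, against 5.86, 6.60 and 6.77 in wild-type HSC. It read 7.03, 5.66 and 5.75 in NFAT5-deficient MPP, against 5.89, 5.56 and 5.77 in wild-type MPP. The values overlapped in both populations, and the highest of the 12 was the single NFAT5-deficient MPP array 64. The difference in MPP, 0.41 (-0.46 to 1.27), became -0.034 without that array. The difference in HSC was -0.25 (-1.11 to 0.61, limma adjusted p = 0.944).

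Socs2, a STAT5 target best known as a brake on growth hormone signalling, had the largest difference between populations among the 10. It read 6.58, 7.36 and 5.42 in NFAT5-deficient HSC and 5.05, 4.82 and 5.11 in NFAT5-deficient MPP, with no overlap. It read 5.23, 7.46 and 5.81 in wild-type HSC and 5.49, 5.22 and 5.25 in wild-type MPP, and there HSC array 66 fell among the MPP arrays. The difference, HSC minus MPP, was 1.46 in NFAT5-deficient cells (SE 0.55, limma adjusted p = 0.531) and 0.85 in wild-type cells (SE 0.55, limma adjusted p = 0.720). Groups without overlap were found for 2 of the 10 in NFAT5-deficient cells (Socs2 and Pias1), where 16.9% of all genes tested had them, and for 0 of 10 in wild-type cells (background 12.3%). Averaged over the genotypes the difference was 1.15 (0.30 to 2.01, limma adjusted p = 0.275), a 2.22-fold higher level in HSC with an interval from 1.23 to 4.02. With single arrays left out its lowest value was 0.83 (wild-type HSC array 67 omitted) and its highest 1.41 (NFAT5-deficient HSC array 76 omitted). In wild-type cells alone the difference became 0.20 without HSC array 67 and 1.32 without HSC array 66.

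The spread of Socs2 also differed between the populations. The SD was 0.97 and 1.16 in NFAT5-deficient and wild-type HSC, and 0.15 in both MPP groups. NFAT5-deficient MPP had a mean of 4.99, inside the span of Y-linked means, and wild-type MPP one of 5.32, just above that span. At so low a level, neither the size of the difference nor the small spread in MPP is resolved. Megakaryocyte and platelet markers also differed in their mean between the populations. Their mean (4 measured, none of them at the Y-linked level) was 8.34 to 8.89 in NFAT5-deficient HSC against 7.44 to 7.75 in NFAT5-deficient MPP, and 8.63 to 8.82 in wild-type HSC against 7.37 to 7.93 in their MPP. Over both genotypes all 4 read higher in HSC, as did 12358 of all 19494 genes tested. Of the 4, 1 passed the test, the platelet factor gene Pf4 (2.49, limma adjusted p = 0.00286), with 0.61% of all genes called. Their part in the Socs2 values was not tested. In sorted bulk cells, fewer cells of a type and less RNA per cell cannot be told apart. Between genotypes, Socs2 differed by 0.29 in HSC (-0.92 to 1.5) and -0.33 in MPP (-1.54 to 0.88). Both intervals use a spread shared by the 4 groups. The MPP interval therefore largely reflects the HSC arrays and not the small SD in MPP. In MPP the Socs2 values of the genotypes did not overlap, which held for 1 of the 10 genes, against 12.6% of all genes tested. In HSC none of the 10 had genotypes without overlap, against 10.2%.

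No suppressor gene was called in any comparison, and Socs2 had the smallest unadjusted p among them, so the genes with the most similar profile were looked up for Socs2. Unnamed gene models were left out of this ranking. Among the other genes, log2 values of Cavin2, which encodes a caveola coat protein, followed those of Socs2 most closely over the 12 arrays (Pearson r 0.967). Ptgfrn (0.961) and Sema6d (0.948) came next. These are descriptions across arrays that share groups, depend on the HSC arrays with high values and carry no test. Ptgfrn had group means of 4.57 to 4.94, within the Y-linked span, and so did Cavin2 in both MPP groups. Cavin2 read 7.10, 8.68 and 5.89 in NFAT5-deficient HSC and 4.20, 4.09 and 4.24 in NFAT5-deficient MPP. It read 4.97, 8.30 and 5.74 in wild-type HSC and 4.35, 4.24 and 4.84 in wild-type MPP. The NFAT5-deficient HSC array 70 and the wild-type HSC array 67 were the highest of their groups for both genes.

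**Figure D2:**
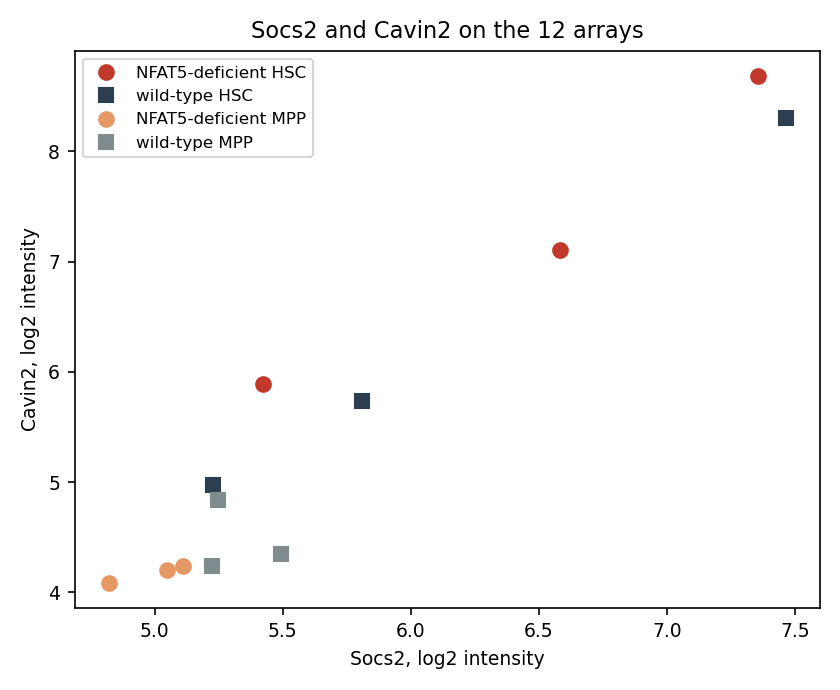
Log2 intensity of Cavin2 (y axis) against that of Socs2 (x axis) on the 12 arrays, coloured by group. MPP arrays of both genotypes lie together at low values of both genes, while the HSC arrays spread along a line from wild-type array 66 (5.23 for Socs2) to wild-type array 67 (7.46 for Socs2).

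Of the phosphatase genes, Ptpn2 encodes TC-PTP, which dephosphorylates JAK1, JAK3 and STATs in the nucleus and cytoplasm. Ptpn2 read 9.93, 10.76 and 9.45 in NFAT5-deficient HSC, against 10.36, 10.33 and 9.94 in wild-type HSC. It read 9.61, 10.69 and 10.26 in NFAT5-deficient MPP, against 10.79, 10.57 and 9.38 in wild-type MPP. The 4 group means lay between 10.05 and 10.24, so that differences between groups made up 2.41% of its variation over the 12 arrays. The genotype difference was -0.16 in HSC (-1.11 to 0.79) and -0.06 in MPP (-1.02 to 0.89).

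Ptpn6 encodes SHP-1, a phosphatase of blood cells that is recruited to inhibitory and cytokine receptors. It read 7.68, 8.63 and 7.86 in NFAT5-deficient HSC, against 6.30, 9.0 and 9.24 in wild-type HSC. It read 6.57, 7.29 and 8.34 in NFAT5-deficient MPP, against 7.89, 7.43 and 7.37 in wild-type MPP. Wild-type HSC held both the lowest and the highest of the 12 values, and Ptpn6 had the widest intervals of the 10 genes. Its genotype difference in HSC was -0.12 (-1.69 to 1.44), and it became -1.06 without wild-type HSC array 66 and 0.41 without wild-type HSC array 75. Between HSC and MPP it differed by 0.66 in NFAT5-deficient and 0.62 in wild-type cells, with intervals that reach from -0.91 to 2.22 and from -0.95 to 2.18.

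Ptpn11 encodes SHP-2, which unlike SHP-1 is needed for RAS-ERK signalling below Kit and other receptors, besides acting on STATs. It read 9.0, 8.36 and 7.68 in NFAT5-deficient HSC, against 8.71, 8.52 and 8.94 in wild-type HSC. It read 9.42, 8.45 and 8.83 in NFAT5-deficient MPP, against 8.54, 9.56 and 9.41 in wild-type MPP. The genotypes overlapped in both populations, with differences of -0.38 in HSC (-1.26 to 0.50) and -0.27 in MPP (-1.14 to 0.61). With single arrays left out, the first ran from -0.71 (NFAT5-deficient HSC array 64 omitted) to -0.05 (NFAT5-deficient HSC array 76 omitted). The second ran from -0.58 (wild-type MPP array 66 omitted) to -0.04 (NFAT5-deficient MPP array 70 omitted). HSC read lower than MPP in both genotypes, by a log2 value of -0.55 in NFAT5-deficient and -0.44 in wild-type cells. Averaged over genotypes the difference was -0.50 (-1.12 to 0.12, limma adjusted p = 0.505).

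Pias1 encodes a SUMO ligase that acts on STATs in the nucleus. It read 8.59, 9.79 and 8.63 in NFAT5-deficient HSC, against 8.17, 9.11 and 8.16 in wild-type HSC. It read 7.81, 8.51 and 8.50 in NFAT5-deficient MPP, against 7.59, 7.93 and 9.02 in wild-type MPP. The genotype difference in HSC was 0.52 (-0.50 to 1.55), with the smallest unadjusted p of the 10 in HSC (limma adjusted p = 0.915). This difference became 0.13 without NFAT5-deficient HSC array 70 and 0.84 without wild-type HSC array 67. In NFAT5-deficient cells all HSC arrays lay above all MPP arrays, with a difference of 0.73 (-0.30 to 1.76, limma adjusted p = 0.735), against 0.30 in wild-type cells (-0.73 to 1.33), where the populations overlapped. The interaction, the difference between these values, was 0.43 for Pias1 (-1.02 to 1.89, limma adjusted p = 0.999).

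Sh2b3 read 6.04, 6.52 and 8.67 in NFAT5-deficient HSC, against 6.40, 6.89 and 6.50 in wild-type HSC. It read 6.08, 6.96 and 6.28 in NFAT5-deficient MPP, against 6.63, 6.32 and 6.09 in wild-type MPP. Of the 12 arrays, 11 lay between 6.04 and 6.96 and NFAT5-deficient HSC array 76 stood apart at 8.67. The genotype difference in HSC was 0.48 (-0.74 to 1.69) with that array and -0.32 without it. Between the populations, NFAT5-deficient cells differed by 0.63 with it and -0.16 without it. The direction of both these differences therefore rests on 1 array. In wild-type cells Sh2b3 differed between HSC and MPP by 0.25 (-0.96 to 1.47), and by 0.10 to 0.39 with single arrays left out. That interval uses a spread shared by all groups, so NFAT5-deficient HSC array 76 widens it too.

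Cbl read 8.06, 8.07 and 9.10 in NFAT5-deficient HSC, against 7.88, 8.56 and 8.35 in wild-type HSC. It read 8.61, 8.72 and 8.56 in NFAT5-deficient MPP, against 9.31, 8.43 and 8.88 in wild-type MPP. Its genotype difference was 0.14 in HSC (-0.61 to 0.90) and -0.25 in MPP (-1.0 to 0.51). It became -0.20 in HSC without NFAT5-deficient HSC array 76, and -0.03 in MPP without wild-type MPP array 66. HSC minus MPP was -0.22 in NFAT5-deficient cells (-0.97 to 0.53) and -0.61 in wild-type cells (-1.36 to 0.14). The wild-type value had the smallest unadjusted p of the 10 in that comparison (limma adjusted p = 0.660), and the populations overlapped.

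**Figure D3:**
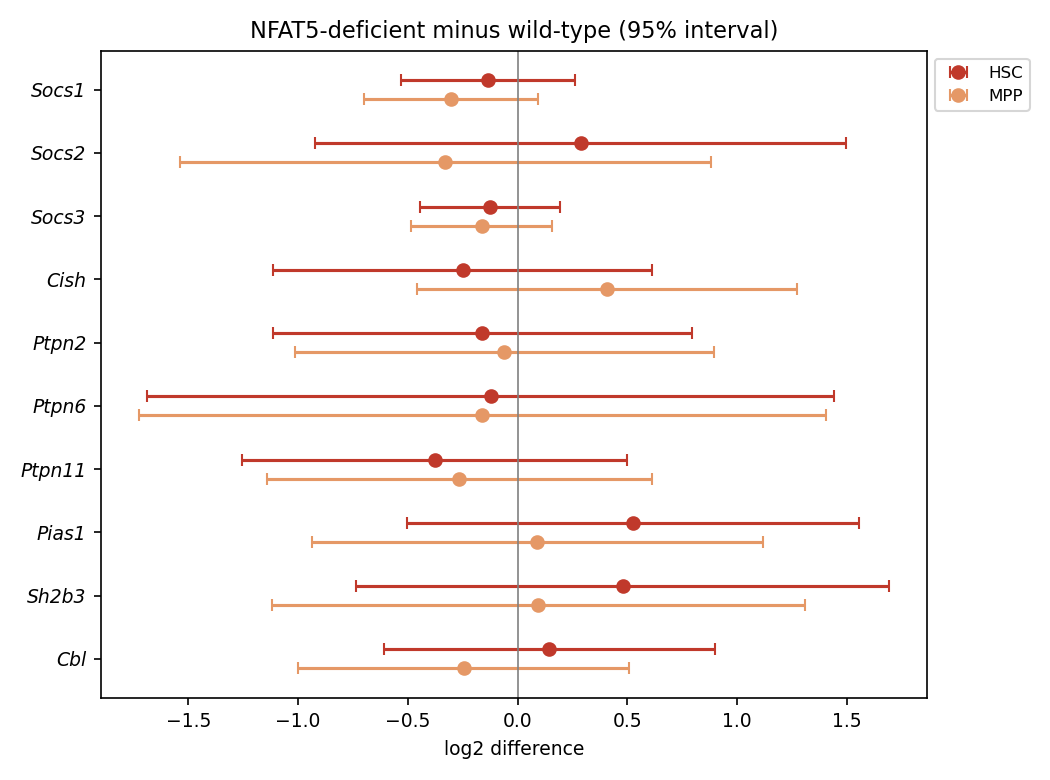
Log2 difference, NFAT5-deficient minus wild-type (x axis), for each of the 10 suppressor genes (y axis) in HSC and in MPP; points are limma estimates and bars 95% intervals. Every interval drawn includes 0, and they are narrowest for Socs3 (0.320 to each side) and widest for Ptpn6 (1.57 to each side).

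The median genotype difference of the 10 genes in HSC was -0.12, with 4 above 0 and 6 below, and that of all genes tested was -0.05. In MPP the median was -0.16, with 3 above 0 and 7 below, and that of all genes was -0.07. The difference between the genotype effects in HSC and MPP had a median of 0.10 over the 10 genes and ranged from -0.66 (Cish) to 0.62 (Socs2), with limma adjusted p = 0.999 for all 10. These comparisons share arrays. Between populations, 7 of 10 had a higher value in HSC of NFAT5-deficient cells (median 0.13, all genes 0.07) and 6 of 10 in wild-type cells (median 0.18, all genes 0.05).

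**Figure D4:**
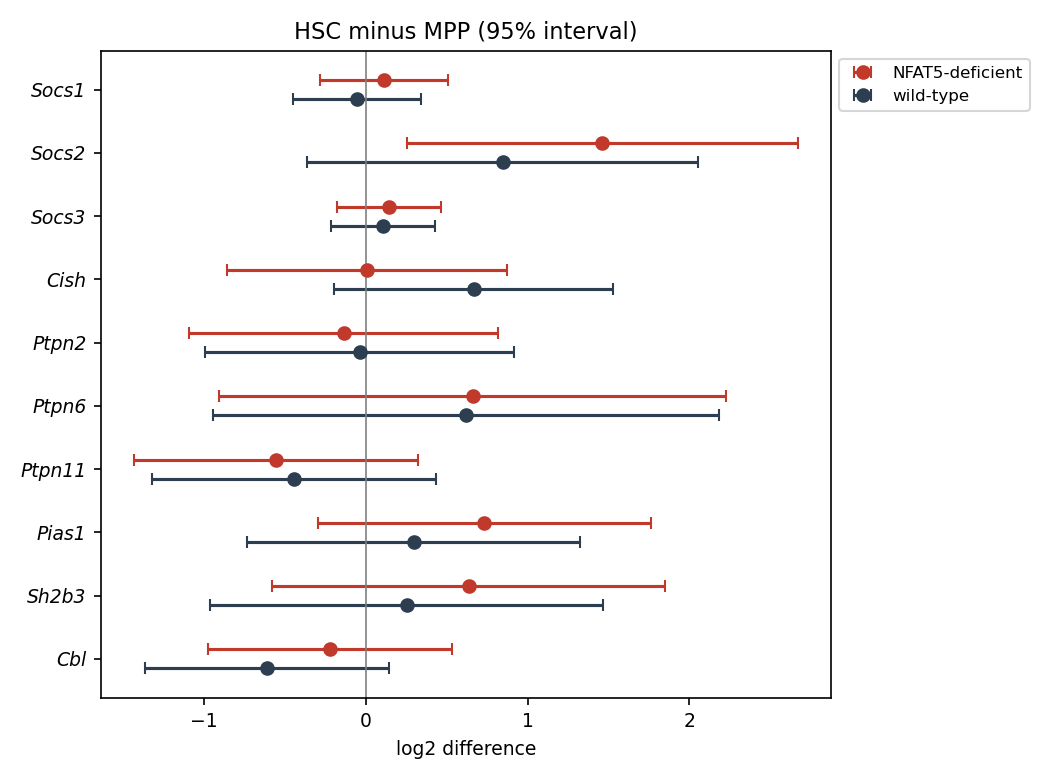
Log2 difference, HSC minus MPP (x axis), for each of the 10 suppressor genes (y axis) in NFAT5-deficient and in wild-type cells; points are limma estimates and bars 95% intervals. Only the interval of Socs2 in NFAT5-deficient cells (0.25 to 2.67) leaves out 0, before adjustment over all genes.

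The replicates of some of these genes were far apart, most of all in NFAT5-deficient HSC. There the median SD of the 10 genes was 0.63, against 0.22 over all genes tested. It was 0.30 against 0.25 in wild-type HSC, 0.43 against 0.20 in NFAT5-deficient MPP and 0.31 against 0.23 in wild-type MPP. Socs1 and Socs3 spanned less than 1 log2 unit in every group. The 3 arrays of a group spanned more than 1 log2 unit in 15 of the 40 combinations of gene and group (37.5%). Over genes with a mean within the range of the 10 (5.73 to 10.17), this held for 25.8% of combinations, and over all genes tested for 18.7%. Of the 15, Ptpn6 in wild-type HSC (2.94), Sh2b3 in NFAT5-deficient HSC (2.63) and Socs2 in wild-type HSC (2.24) had the widest spans. Labelled cDNA was made from 300 pg of total RNA per sample, and the part of this small input in the spread was not tested.

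The rest of the pathway was described through 8 further gene lists. Between HSC and MPP over both genotypes, limma called 2 of 18 receptor genes, both lower in HSC, and 0 genes in each of the other 7 lists, where 0.61% of all genes were called. Flt3, the receptor of FLT3 ligand in early progenitors, fell by 2.87 (SE 0.26, limma adjusted p = 0.000999). Il10rb, a receptor chain shared by interleukin-10 and interferon-lambda, fell by 2.29 (SE 0.26, limma adjusted p = 0.00301). Flt3 averaged 6.05 ± 0.64 in NFAT5-deficient HSC against 9.10 ± 0.18 in NFAT5-deficient MPP, and 6.05 ± 0.57 in wild-type HSC against 8.75 ± 0.34 in their MPP (SD, n = 3 each). The receptor list as a whole had 5 genes with a higher and 13 with a lower value in HSC (median -0.28). Over all genes tested 12358 were higher and 7136 lower (median 0.06), and the 7 higher and 3 lower of the 10 suppressors (median 0.23) lie near that share. Kit, on which Cbl acts, had group means from 11.16 to 11.43.

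The STAT5 target list, which leaves out Cish and Socs2, had 5 of 8 genes with a higher value in HSC (median 0.08). Ccnd2, which encodes cyclin D2, differed by 0.66 (limma adjusted p = 0.110) and Bcl2l1, which encodes the survival protein BCL-XL, by 2.03 (limma adjusted p = 0.125), and neither passed. STAT3 targets had 4 of 6 higher (median 0.11, Junb at 0.23 and Pim1 at -0.35). Of the JAKs and STATs, 5 of 9 read higher in HSC (median 0.07), with Tyk2 at -0.78 and Stat3 at -0.74 (limma adjusted p = 0.323 and 0.402). The other SOCS and PIAS genes had 3 of 7 higher (median -0.02), with Pias2 at 0.21 and Socs7 at -0.48. The SOCS box ligase partners, subunits of the ligase that SOCS proteins recruit, had 2 of 6 higher (median -0.11), with Cul2 at -1.17 (limma adjusted p = 0.335) and Cul5 at -0.75. Further phosphatases and adaptors had 5 of 12 higher (median -0.14), with Inpp5d, which encodes the lipid phosphatase SHIP1, at -0.72 (limma adjusted p = 0.230) and Ptprj at 0.56. RAS-ERK feedback genes had 5 of 8 higher (median 0.25), with Spred2 at 0.80 and Dusp6 at -0.61.

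For loss of NFAT5 over both populations, 0 genes of the 8 lists were called, with 0 called among all genes tested. STAT3 targets had 1 of 6 genes with a higher value in NFAT5-deficient cells (median -0.12, all genes -0.06, Fos at -0.43 and Junb at -0.15), and Stat3 itself differed by -0.79 (limma adjusted p = 0.690). JAKs and STATs had 4 of 9 higher (median -0.05), with Stat2 at 0.48. STAT5 targets had 5 of 8 higher (median 0.06, Id1 at -0.21 and Ccnd2 at -0.28) and receptors 10 of 18 (median 0.05, Csf2rb at 0.33 and Lifr at 0.14). The other SOCS and PIAS genes had 4 of 7 higher (median 0.02), with Pias4 at -0.22 and Socs6 at 0.91. Phosphatases and adaptors outside the 10 had 7 of 12 higher (median 0.07, Sh2b1 at -0.30 and Ptprc at 0.61) and RAS-ERK feedback genes 3 of 8 (median -0.08, Dusp4 at -0.39 and Dusp5 at 0.31). SOCS box ligase partners had 2 of 6 higher (median -0.04), Cul5 at 1.25 (limma adjusted p = 0.710) and Cul2 at 0.61.

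**Figure D5:**
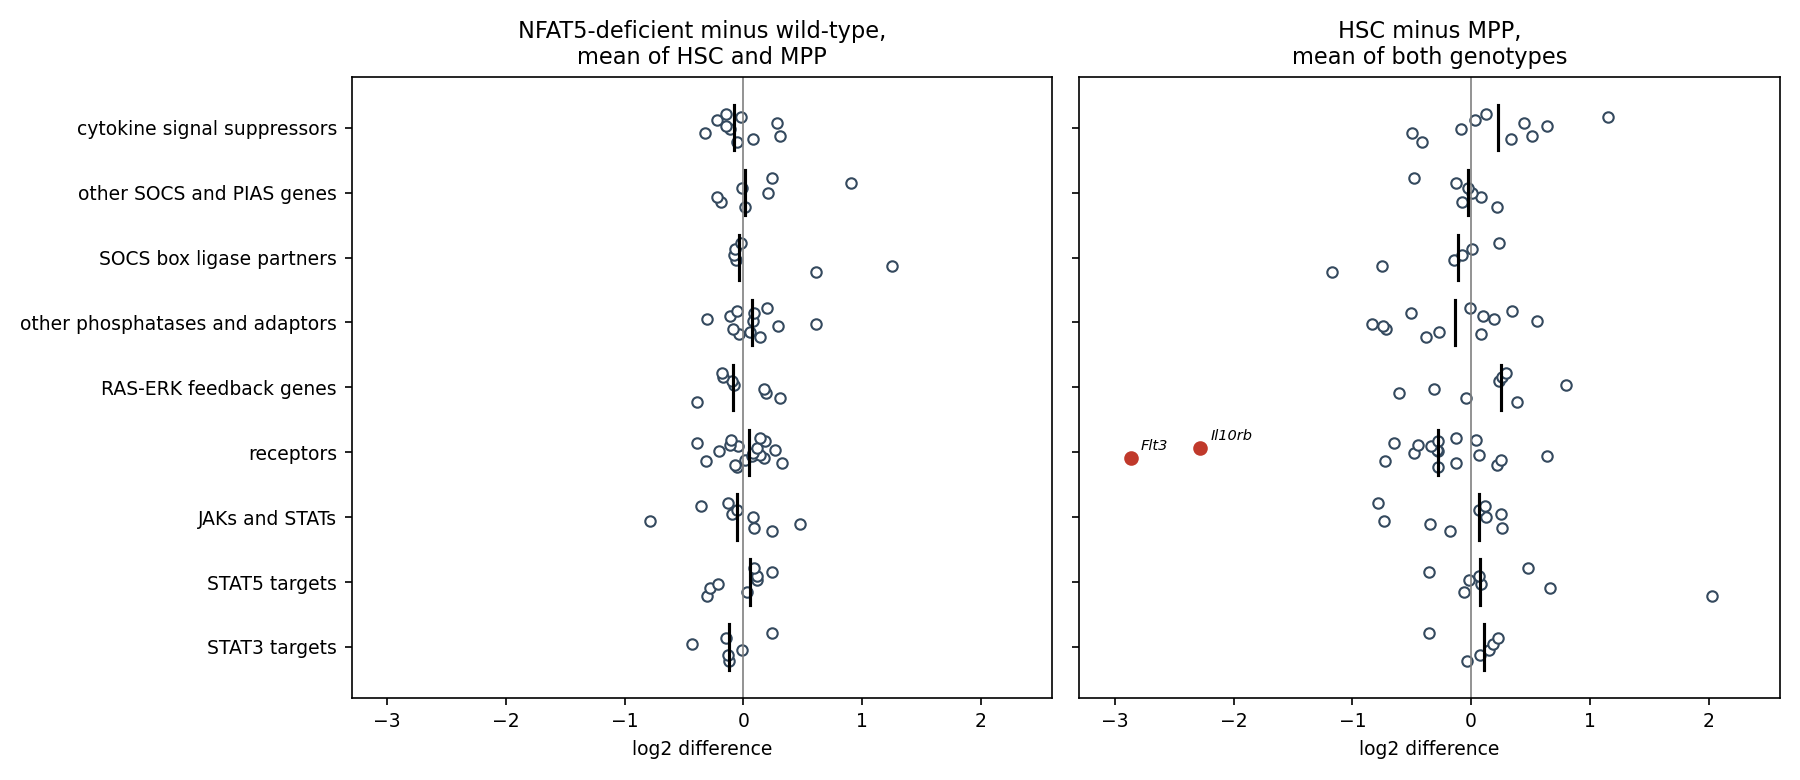
Log2 difference (x axis) of each gene in the suppressor list and 8 further pathway lists (y axis), for NFAT5-deficient minus wild-type averaged over HSC and MPP (left) and HSC minus MPP averaged over genotypes (right); circles are genes, filled where limma's adjusted p was under 0.05, and black bars are list medians. The filled circles are Flt3 (-2.87) and Il10rb (-2.29), both among the receptors in the comparison of populations.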

How the data were processed

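RNA of 12 sorted samples was hybridised to 1-colour arrays, 1 array a sample. The authors deposited 1 table of normalized log2 intensities, with 22142 probe sets. RMA and limma are named, with neither version nor role, per the submitters' processing notes, and the log2 scale was read from the values (2.51 to 13.28). Genome build and batches: not given in the sources used here. For names, the platform annotation gave 1 symbol to 19527 probe sets and none to 2615, which were left out. Where a gene had several probe sets (33 genes), that with the highest mean stood for it. No filter on dim genes was applied, and Y-linked genes served as a low level.

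limma 3.58.1 in R 4.3.3 fitted a mean per group over all 12 arrays with a variance prior that follows intensity. Benjamini-Hochberg adjustment ran over all 19494 genes of each of 7 comparisons, and genes under 0.05 were called. Averages over populations or genotypes counted HSC and MPP arrays as separate samples. Intervals are 95% and unadjusted. Each gene had a spread shared by all groups, so intervals and p-values do not follow the spread of only the groups compared. The fit was run on simulated data made by shuffling each gene's deviations from its group means over all 12 arrays. Groups then had equal spread, so that run does not show how the fit treats genes such as Socs2. Figures used Python 3.11.15 and matplotlib 3.10.9. Arrays give no read depth, and their number limits the precision.

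The 10 genes and the lists were chosen with earlier results of these data known. Named were the 10 genes, Nfat5 and, per pathway list, the called genes or otherwise the 2 with the smallest unadjusted p. The 3 genes most like a member by Pearson r, with unnamed gene models left out, were named for members called in a comparison. With none called, they were named for the member with the smallest unadjusted p. Ms4a4c, Kit and the marker genes Slamf1, Cd48, Nkg7, Pf4, Eif2s3y, Kdm5d and Uty were named outside this rule. Other marker genes, called or not, were not all named. Some genes and 1 gene list are not reported here. Alternatives varied normalization, the dim-gene filter, the variance prior, the probe set rule, the arrays fitted, a block on array number and the threshold.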

Additional observations from a re-analysis of the deposited data

How the results depend on the processing

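No suppressor gene tested was called under any alternative, so the alternatives moved only counts over all genes and directions that had not passed. Fits of only the groups compared did not cover the interaction and the averages. Background correction could not be varied on normalized values, and Socs2 was not tested under a filter of a mean of at least 6. With only the groups compared, 0 genes were called for NFAT5 in MPP, 12 between populations in NFAT5-deficient and 9 in wild-type cells (all groups: 1, 41 and 32). Quantile normalization gave 2 in MPP and 23 between populations in NFAT5-deficient cells. The filter gave 0 in MPP and 1 for the interaction. Without wild-type HSC array 66 and NFAT5-deficient HSC array 70 the counts were 0 in MPP, 23 and 18 between populations in NFAT5-deficient and wild-type cells and 79 over both genotypes (all arrays: 119). At an adjusted p under 0.10 they were 7 in MPP, 1 for the interaction, and 62, 72 and 218. Deviations of same-numbered HSC and MPP arrays had correlations of -0.0137 to 0.0641. In wild-type cells these were 0.062, 0.064 and 0.0071 (arrays 66, 67 and 75), against -0.083 to 0.023 between different numbers. In NFAT5-deficient cells they were 0.016, -0.0032 and -0.0137 (arrays 64, 70 and 76), against -0.039 to 0.041. With so few arrays in a group, these values cannot decide whether equal numbers are the same animal. The main fit did not take the numbers as pairs. With the number as a replicate block, 1 gene was called for the interaction and the other counts stayed within 1.5 times. Directions turned without both arrays for Pias1 (-0.025) and Socs2 (-0.63) by genotype in HSC. Array 66 was the lowest wild-type HSC array for Socs2, and array 70 the highest NFAT5-deficient HSC array for both genes. Leaving these arrays out therefore lowers both differences whatever the processing. Under quantile normalization directions turned for Cish in NFAT5-deficient (-0.038) and Ptpn2 in wild-type cells (0.0017) between populations. The cause was not tested.

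Leaving out each array in turn gave 0 to 3 genes for NFAT5 in HSC, 0 to 4 in MPP, 0 to 1 for the interaction, 0 to 2 over both populations, 5 to 32 and 11 to 30 between populations in NFAT5-deficient and wild-type cells, and 71 to 112 over both genotypes. Genotype differences in HSC then ran from -0.20 to 0.32 for Cbl, -0.54 to 0.019 for Cish, -0.52 to 0.14 for Ptpn2, -1.06 to 0.41 for Ptpn6, -0.32 to 1.0 for Sh2b3 and -0.18 to 0.94 for Socs2. In MPP they ran from -0.034 to 0.65 for Cish, -0.21 to 0.51 for Pias1, -0.50 to 0.23 for Ptpn2, -0.63 to 0.25 for Ptpn6 and -0.17 to 0.27 for Sh2b3. Between populations they ran from -0.28 to 0.45 for Cish, -0.49 to 0.16 for Ptpn2, -0.16 to 1.15 for Sh2b3 and -0.019 to 0.19 for Socs1 in NFAT5-deficient cells. In wild-type cells the ranges were -0.018 to 0.72 for Pias1, -0.47 to 0.23 for Ptpn2 and -0.19 to 0.13 for Socs1. For these genes 1 array decides the direction.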
